A study of Mus musculus with 32 samples.

Results

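The 43 genes described here encode the machinery that copies DNA in S phase, together with genes switched on with it: the replicative helicase and its loaders, polymerases, the sliding clamp, nucleotide synthesis, Okazaki fragment processing, histone supply and the factors E2f1 and E2f8. They were taken by name from a list, and no measured value of this series entered that rule. The list itself was chosen with earlier results of these data known. All 43 were among the 24421 genes of the count tables (18897 had a UMI, a unique molecular identifier that counts 1 captured transcript), and all 43 were among the 13228 genes that passed the filter on low counts and were tested.

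Single-cell 3' RNA counts came from mouse cells in 32 libraries, 2 replicates (A and B) for each of 16 groups. Reprogramming cultures of mouse embryonic fibroblasts (MEFs) were grown on irradiated MEF feeders with doxycycline at 2 ug/mL, in medium with serum and leukaemia inhibitory factor. A2S cultures also had ascorbic acid at 50 ug/mL, the DOT1L inhibitor SGC0946 at 5 uM and, from 12 h, 2i (a GSK3 inhibitor with a MEK inhibitor), and were taken at days 2, 4 and 6. A2 cultures lacked SGC0946, S2 cultures lacked ascorbic acid and AS cultures lacked 2i, each taken at days 4 and 6. FBS cultures had the same medium and a label of no treatment, at days 3, 6, 9 and 12. V6.5 mouse embryonic stem cells (ESCs) were kept with A2S (day 2) or without treatment, and untreated MEFs were the starting cells. The age label of all groups used is embryonic. The labels name neither the genes that doxycycline switches on nor the strain of the MEFs, and are silent on whether A and B are separate cultures. A p-value here sets a difference against the variation among these libraries, which may be technical.

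DNA replication is prepared in G1, when the Mcm2 to Mcm7 ring is loaded at origins with the help of Cdc6, and is started in S phase, when Cdc45 and the GINS complex join the ring to form the working helicase. The E2F factors, held back by the retinoblastoma proteins until cyclin-dependent kinases release them, drive transcription of most of these genes as cells pass from G1 into S. Mouse ESCs are known for a short G1 and a large share of cells in S phase, while fibroblasts spend longer in G1 and can leave the cycle.

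After barcodes on the authors' list of irradiated MEFs were dropped (689 of 8334), a library held 138 to 431 cells and 1727490 to 8848775 UMIs. The labelled cells carried their markers: 12 of 12 pluripotency markers had UMIs in each ESC library, with a summed level of 5823 to 6083 CPM (counts scaled to a common library total), against 0.286 and 1.70 CPM in MEFs. Fibroblast markers summed to 355 to 712 CPM in the 4 ESC libraries and to 13997 and 13016 CPM in MEFs. In the bulk sums used below, a higher level can mean more expressing cells or more RNA per cell, and these cannot be told apart there. The chi-square between the gene counts of a group's 2 replicates was 1.64 to 8.62 times its degrees of freedom, so no pair was 1 library deposited again, and 34 barcodes occurred in 2 libraries. No gene is compared in level with another. Many comparisons share a group (A2S day 6 enters 6 of them), so their values are set side by side and not counted as separate support.

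To show the sequence that is most often tied to S phase transcription, RefSeq promoter windows (GRCm38.p6, 250 bases before to 50 after each start) were searched for the E2F-type motif TTTNNCGC and for the CCAAT box, both on either strand. Windows were found for 34 of the 43 genes. The E2F-type motif was in a window of 14 of the 34 (41.2%) and of 1602 of all 27025 genes (5.93%). CCAAT was in 22 of the 34 (64.7%) and in 41.1% of all genes, and both motifs were in 8 of the 34 (23.5%) and in 2.39% of all genes. Member windows had a median GC content of 59.0%, against 52.7% for all windows. The E2F-type motif was in 35.9% of the 39 member windows, against 6.49% of the 17623 windows of like GC content (48.1% to 67.5%). The 200 bases before the start are printed for 6 genes that the results below turn on, 5' to 3' along the gene, with matches to TTTNNCGC or CCAAT, on either strand, in capitals. Mcm5 at chr8:75109309-75109508 (plus strand) and Mcm6 at chr1:128359706-128359905 (minus strand) belong to the helicase ring, Cdc6 at chr11:98907951-98908150 (plus strand) to its loader, Hells at chr19:38930790-38930989 (plus strand) encodes a chromatin remodeller, and Rrm2 at chr12:24708054-24708253 (plus strand) and Rrm1 at chr7:102441495-102441694 (plus strand) encode the small and the large subunit of ribonucleotide reductase.
Mcm5: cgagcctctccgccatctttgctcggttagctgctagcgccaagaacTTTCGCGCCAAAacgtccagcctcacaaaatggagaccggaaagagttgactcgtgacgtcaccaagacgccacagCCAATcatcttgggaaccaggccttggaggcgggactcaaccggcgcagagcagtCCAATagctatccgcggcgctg
Mcm6: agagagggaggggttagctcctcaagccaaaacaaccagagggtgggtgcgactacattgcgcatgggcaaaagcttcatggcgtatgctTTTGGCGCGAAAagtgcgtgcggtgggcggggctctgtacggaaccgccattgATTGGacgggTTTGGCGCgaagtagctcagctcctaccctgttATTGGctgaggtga
Cdc6: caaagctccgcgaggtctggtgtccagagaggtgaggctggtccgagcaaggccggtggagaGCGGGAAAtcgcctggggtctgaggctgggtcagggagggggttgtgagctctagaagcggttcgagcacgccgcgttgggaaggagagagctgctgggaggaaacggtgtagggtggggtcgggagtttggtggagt
Hells: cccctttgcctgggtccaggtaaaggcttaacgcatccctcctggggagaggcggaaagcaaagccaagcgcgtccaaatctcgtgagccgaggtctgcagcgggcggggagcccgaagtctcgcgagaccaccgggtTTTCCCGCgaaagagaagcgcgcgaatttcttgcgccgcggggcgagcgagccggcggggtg
Rrm2: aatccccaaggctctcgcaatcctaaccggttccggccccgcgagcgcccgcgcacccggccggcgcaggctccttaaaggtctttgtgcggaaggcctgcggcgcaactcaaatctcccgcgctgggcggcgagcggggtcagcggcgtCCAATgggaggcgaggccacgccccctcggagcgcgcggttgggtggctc
Rrm1: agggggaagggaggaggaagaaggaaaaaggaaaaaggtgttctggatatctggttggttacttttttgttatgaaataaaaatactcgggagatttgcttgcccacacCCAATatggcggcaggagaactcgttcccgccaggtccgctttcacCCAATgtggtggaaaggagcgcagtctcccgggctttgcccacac
In Mcm5 and in Mcm6, 2 E2F-type matches on opposite strands overlap in 1 block, and Mcm6 has a further match nearer its start. Cdc6 and Hells have 1 E2F-type match each and no CCAAT. These stretches precede the RefSeq start. GENCODE starts Cdc6 at 98907801, before its printed stretch, and Hells at 38930915, within its stretch. The E2F-type matches of Cdc6 and Hells lie after the GENCODE start. Rrm2 has its GENCODE start at 24708241, also within its stretch. Rrm2 and Rrm1 have CCAAT boxes (1 and 2) and no E2F-type match in the window. A match is a string of letters and was not tested for binding. Median log2 fold changes of the 14 genes with the motif and of the 20 without it lay close together in most comparisons, for example 1.70 and 1.33 for ESCs against MEFs and -0.99 and -1.15 for FBS day 6 against day 3.

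The summed level of the 43 genes, in which members with high counts weigh most, ordered the groups (mean ± SD of CPM, n = 2). It was 8683 ± 178 in ESCs with A2S and 8245 ± 267 in ESCs. It was 5108 ± 120 at A2S day 2 and 4818 ± 33.0 at FBS day 3, the earliest time of each course. Later A2S cultures held 4243 ± 21.8 at day 4 and 4627 ± 134 at day 6. Of these sums, Rrm1 and Rrm2 held 518 and 910 CPM at A2S day 2, and 302 and 393 CPM at A2S day 6. The order of A2S day 2 and day 6 therefore does not describe the other members. MEFs lay at 2964 ± 76.3, and FBS cultures from day 6 on lay at or below that level, with 2497 ± 8.95 at day 6, 2796 ± 119 at day 9 and 2511 ± 181 at day 12. Within the serum course the 2 libraries of each day differed by less than day 3 differed from the later days. The libraries of FBS day 12 (2383 and 2639) enclosed those of day 6 (2503 and 2491), and all 4 were below those of MEFs (3018 and 2910).

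**Figure D1:**
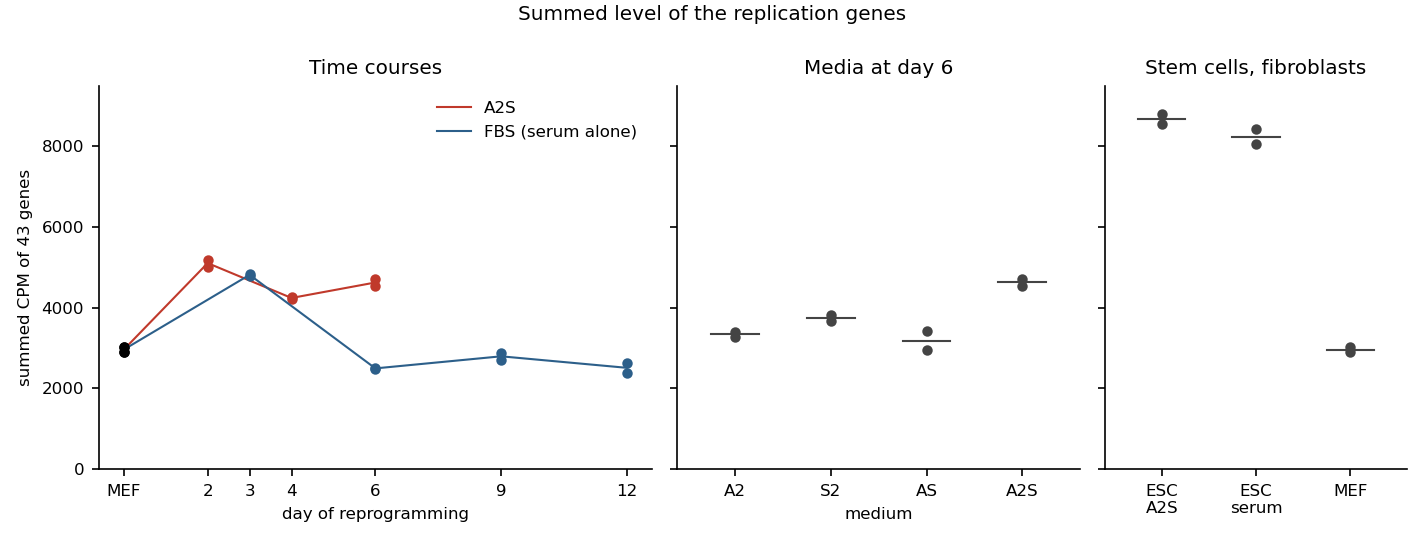
Summed level of the 43 genes in CPM (linear axis from 0) for each library (points), by day for A2S and FBS cultures with MEFs drawn at the left of the day axis, by medium at day 6, and in ESCs with A2S, ESCs in serum and MEFs; lines mark or join group means. ESC libraries lie between 8057 and 8809, above every other library, and both courses stand higher at their first time (4794 to 5193) than MEFs (2910 and 3018).

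ESCs were set against MEFs, the cells reprogramming starts from. Of the 43 genes, 40 were higher in ESCs and 1 was lower (adjusted p under 0.05), with a median log2 fold change of 1.56, where 35.6% of all tested genes were higher, 36.4% were lower and the median was 0.00. All 12 genes of helicase loading and activation were higher, as were all 10 of polymerases, clamp and loader, all 8 of Okazaki fragments, repair and checkpoint and all 7 of chromatin assembly and histone supply. All 41 calls held in each of the alternative fits and with any single library left out.

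The chromatin genes had the highest median (2.59). Hells was at 413 and 381 CPM in ESCs, against 49.5 and 39.3 CPM in MEFs (log2 fold change 3.17 ± 0.16 SE, adjusted p = 9.22e-18). Nasp, a chaperone of histone H3 (chromosome 4, 116601052 to 116627941 in mm10, protein-coding), was at 676 and 650 CPM in ESCs, against 98.2 and 86.0 CPM in MEFs (2.85 ± 0.12, adjusted p = 2.58e-19). Both genes stood apart, with no overlap between libraries. Cdca7, which works with Hells, was at 154 and 150 CPM in ESCs, against 26.2 and 24.2 CPM in MEFs (2.59 ± 0.14). Slbp, which binds the stem-loop of histone mRNAs, differed less (0.95 ± 0.26), at 45.9 and 39.6 CPM in ESCs, against 20.1 and 23.9 CPM in MEFs.

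In the helicase group, fold changes ran from 0.89 for Gins2 to 2.78 for Mcm10, which helps to activate the loaded helicase. Among ring subunits, Mcm5 (chromosome 8, 75109569 to 75128439, protein-coding) was at 576 and 560 CPM in ESCs, against 104 and 96.4 CPM in MEFs (2.50 ± 0.12, adjusted p = 4.56e-18). Mcm6, of the same ring, was at 432 and 441 CPM in ESCs, against 187 and 167 CPM in MEFs (1.30 ± 0.11, adjusted p = 3.12e-12). The 6 ring subunits thus did not move by one factor, since Mcm4 had 1.13 ± 0.13, Mcm7 1.77 ± 0.10, Mcm3 1.89 ± 0.12 and Mcm2 2.09 ± 0.11. Differences between subunits were not tested. Gmnn, the inhibitor of licensing, was also higher in ESCs, at 180 and 181 CPM, against 47.9 and 52.9 CPM in MEFs (1.84 ± 0.12).

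Of the 4 genes of nucleotide supply and uracil removal, 2 were higher, 1 was lower and 1 had no call (median 0.38). Rrm1 (chromosome 7, 102441695 to 102469771, protein-coding) was at 253 and 280 CPM in ESCs, against 353 and 355 CPM in MEFs (-0.41 ± 0.11, adjusted p = 9.26e-04), the 1 member called lower (all adjusted p-values are from edgeR's quasi-likelihood test with Benjamini-Hochberg adjustment). Its partner Rrm2 was at 525 and 487 CPM in ESCs, against 325 and 318 CPM in MEFs (0.66 ± 0.12, adjusted p = 2.35e-05). In these sums the 2 subunits of 1 enzyme had opposite signs, which the shares of cells given further on do not repeat. Tyms, which makes thymidylate, was at 56.0 and 55.8 CPM in ESCs, against 46.1 and 58.0 CPM in MEFs, and overlapped (0.10 ± 0.18, adjusted p = 0.633). Ung, which removes uracil from DNA, was at 168 and 151 CPM in ESCs, against 20.6 and 18.7 CPM in MEFs (3.02 ± 0.16, adjusted p = 2.66e-17). Of the transcription factors, the repressor E2f8 was higher (1.56 ± 0.18), while the activator E2f1 was at 40.8 and 33.3 CPM in ESCs, against 32.8 and 26.6 CPM in MEFs (0.32 ± 0.20, adjusted p = 0.146).

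**Figure D2:**
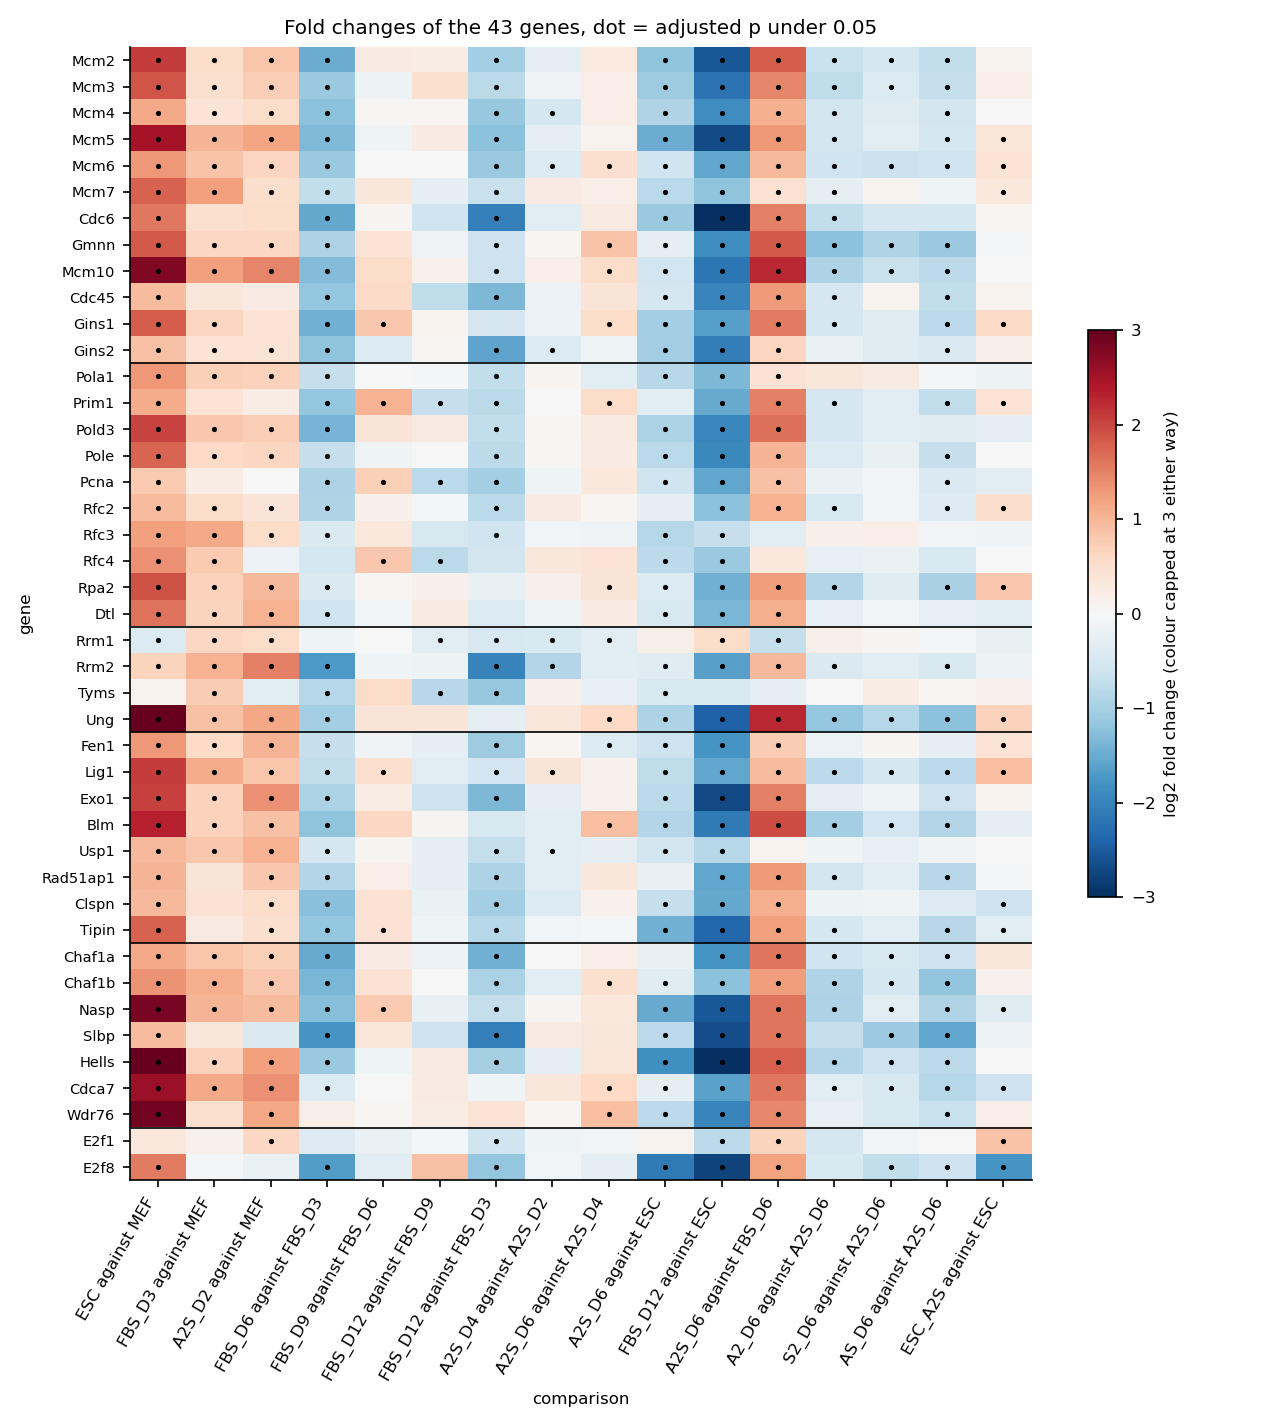
Log2 fold change of each of the 43 genes (rows, in blocks by role from helicase genes at the top to transcription factors at the bottom) in 16 comparisons (columns); red is higher and blue lower in the group named before "against", and a dot marks adjusted p under 0.05. Most genes share a colour within a column, and Rrm1 stands against its column for ESC against MEF (-0.41), A2S day 6 against FBS day 6 (-0.71) and FBS day 12 against ESC (0.55).

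The early response was read from the first time of each course against MEFs. At A2S day 2, 34 of the 43 genes rose and none fell (median log2 fold change 0.69, where 22.8% of all genes were higher and 26.9% lower). At FBS day 3, 32 rose and none fell (median 0.66, background 18.2% higher and 22.5% lower).

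Cell markers moved in the same libraries. Fibroblast markers summed to 3457 and 3714 CPM at A2S day 2 and to 6185 and 6422 CPM at FBS day 3, against 13997 and 13016 CPM in MEFs, with 11 of 11 detected in each. Epithelial markers summed to 151 and 112 CPM at A2S day 2 (7 of 10 detected) and to 303 and 296 CPM at FBS day 3 (6 and 5 of 10), against 28.2 and 36.4 CPM in MEFs (5 of 10). Their part in the rise was not tested.

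Rrm2 rose most at A2S day 2, to 912 and 908 CPM, against 325 and 318 CPM in MEFs (1.50 ± 0.12, adjusted p = 9.50e-12). At FBS day 3 it was at 626 and 700 CPM (1.04 ± 0.12, adjusted p = 3.32e-08). Both levels exceeded that of ESCs (525 and 487 CPM). Mcm10 reached 41.7 and 46.3 CPM at A2S day 2 (1.46 ± 0.17) and 43.8 and 30.7 CPM at FBS day 3 (1.23 ± 0.18), against 16.5 and 15.5 CPM in MEFs. Rrm1 rose as well, to 500 and 536 CPM at A2S day 2 (0.55 ± 0.10) and 565 and 516 CPM at FBS day 3 (0.61 ± 0.10), against 353 and 355 CPM in MEFs, where ESCs were lower than MEFs. Pcna, the clamp that holds polymerases on DNA, was at 141 and 118 CPM at A2S day 2, against 123 and 136 CPM in MEFs (0.00 ± 0.15, adjusted p = 1), and at 141 and 161 CPM at FBS day 3 (0.22 ± 0.15, adjusted p = 0.247). E2f8, Slbp and Cdc45 passed the test at neither time.

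Listed MEFs were most frequent here, with 118 cells at A2S day 2 and 216 at FBS day 3, against 23 in MEFs. With these cells kept, 14 genes rose at FBS day 3 (Rrm2 by 0.65 and Mcm7 by 0.88 among them), while 32 rose and 1 fell at A2S day 2. Of the calls at FBS day 3, 27 of 32 held with each library left out in turn, among them Rrm2, Mcm10 and Mcm7.

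A few members peaked outside ESCs. Rrm2 and Usp1 had their highest group mean at A2S day 2 (910 and 225 CPM), while Rrm1 and Tyms had theirs at FBS day 3 (541 and 89.1 CPM). Rrm1 had its lowest mean in ESCs with A2S (228 CPM). These 4 genes were picked out after their values were seen.

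In serum medium the genes fell between days 3 and 6. Of 43, 39 were lower at FBS day 6 and none was higher (median log2 fold change -1.11, where 19.3% of all genes were lower and 18.6% higher). All 12 helicase genes fell (median -1.22) and all 8 genes of Okazaki fragments, repair and checkpoint fell (median -0.92). Of the 39 calls, 34 held with each library left out and 31 held in every alternative.

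Rrm2 (chromosome 12, 24708241 to 24714146, protein-coding) fell to 188 and 214 CPM at FBS day 6, against 626 and 700 CPM at day 3 (-1.73 ± 0.13, adjusted p = 1.04e-11). Slbp fell to 9.76 and 5.71 CPM, against 22.7 and 32.9 CPM at day 3 (-1.77 ± 0.34, adjusted p = 1.15e-04). E2f8 fell to 10.9 and 14.1 CPM, against 35.1 and 43.5 CPM at day 3 (-1.68 ± 0.26). None of these overlapped between days. Mcm2 was at 64.1 CPM in both day 6 libraries, against 182 and 179 CPM at day 3 (-1.49 ± 0.12, adjusted p = 7.56e-11). Cdc6 fell to 12.0 and 10.5 CPM, against 35.7 and 30.7 CPM at day 3 (-1.54 ± 0.32). The 4 genes with no call were Rrm1, at 503 and 487 CPM on day 6 against 565 and 516 CPM on day 3 (-0.13 ± 0.10, adjusted p = 0.352), Wdr76 (0.17 ± 0.35), E2f1 (-0.38 ± 0.22) and the clamp loader subunit Rfc4. Rrm1 and Rrm2 thus separated here too, with a fold change near 0 for the large subunit.

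After day 6 the serum course changed little. At FBS day 9, 7 genes were higher than at day 6 and none lower (median 0.23, background 4.54% higher and 4.72% lower): Prim1, Gins1, Rfc4, Nasp, Pcna, Lig1 and Tipin. Nasp was at 141 and 124 CPM on day 9, against 78.6 and 74.7 CPM on day 6 (0.78 ± 0.14, adjusted p = 5.19e-04), the 1 call that held in every alternative. Without FBS day 6 A or day 9 A the count was 2, and without day 9 B it was 3. At FBS day 12, 5 genes were lower than at day 9 and none higher (median -0.07, background 6.37% lower and 6.22% higher): Tyms, Pcna, Rfc4, Prim1 and Rrm1. The share of members called lower (11.6%) was above that of all genes, while none was called higher. Taken over both directions, the share called was about that of all genes. The count was 0 without FBS day 12 A and 3 without day 12 B, day 9 A or day 9 B (1 of them higher without day 9 A).

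Pcna was called at both steps, with 80.3 and 79.1 CPM at day 6, 141 and 122 CPM at day 9 and 65.1 and 83.7 CPM at day 12. Neither of its calls held with each library left out. Over the whole interval, 35 genes were lower at FBS day 12 than at day 3 and none was higher (median -0.82, background 22.9% lower and 22.8% higher). Rrm2 was at 146 and 183 CPM on day 12, against 626 and 700 CPM on day 3 (-2.01 ± 0.14, adjusted p = 4.15e-13), and Cdc6 at 9.14 and 7.06 CPM, against 35.7 and 30.7 CPM (-2.04 ± 0.38, adjusted p = 5.02e-05). Rrm1 was lower by then too, at 360 and 421 CPM on day 12, against 565 and 516 CPM on day 3 (-0.47 ± 0.11).

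In A2S the summed level was lower at day 4 (4228 and 4259 CPM) than at day 2 (5023 and 5193 CPM), and at day 6 (4533 and 4722 CPM) it was still below both day 2 libraries. Rrm2 and Rrm1 weigh heavily in that sum. Rrm2 was at 380 and 405 CPM on day 6, against 912 and 908 CPM on day 2. Rrm1 was at 298 and 305 CPM on day 6, against 500 and 536 CPM on day 2. The lower sum at day 6 therefore does not describe the other members as a set. At day 4, 1 gene was higher and 6 were lower than at day 2 (median -0.09, background 14.5% higher and 14.8% lower), a share no larger than among all genes. Rrm2 fell to 483 and 496 CPM at day 4, against 912 and 908 CPM at day 2 (-0.89 ± 0.12, adjusted p = 1.11e-06), the 1 call that held in every alternative. The count was 4 without A2S day 2 B or day 4 A and 3 without day 4 B. With listed cells kept, 7 genes were higher and 1 lower, so the balance of directions turned.

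At A2S day 6, 11 genes were higher and 2 lower than at day 4 (median 0.25, background 11.5% higher and 12.2% lower). Gmnn (chromosome 13, 24751845 to 24761923, protein-coding) rose to 149 and 144 CPM at day 6, against 80.1 and 81.4 CPM at day 4 (0.86 ± 0.13, adjusted p = 9.40e-06). Blm, a helicase of recombination repair, rose to 40.5 and 50.0 CPM, against 23.2 and 25.2 CPM at day 4 (0.91 ± 0.19), and Cdca7 rose to 125 and 123 CPM, against 79.3 and 86.6 CPM (0.59 ± 0.13). These 3 calls held in every alternative. The 2 lower genes were Fen1, which trims the flaps of Okazaki fragments (-0.42 ± 0.13), and Rrm1 (-0.33 ± 0.11, no call without A2S day 4 B, day 6 A or day 6 B). The call of Fen1 did not hold with each library left out either. The count of calls was 7 without A2S day 4 A, 6 without day 4 B and 5 without day 6 B.

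At day 6, A2S cultures were set against FBS cultures of the same age. A2S had 38 genes higher and 1 lower (median log2 fold change 1.25, background 27.3% higher and 25.4% lower), and 36 of the 39 calls held in every alternative. Mcm10 was at 66.7 and 80.7 CPM in A2S, against 14.8 and 15.8 CPM in FBS (2.27 ± 0.20, adjusted p = 3.52e-11). Ung was at 74.5 and 93.8 CPM in A2S, against 18.1 and 16.7 CPM in FBS (2.26 ± 0.19, adjusted p = 1.46e-11). The libraries of the media did not overlap for either gene. Gmnn was at 149 and 144 CPM in A2S, against 41.0 and 40.0 CPM in FBS (1.85 ± 0.14), and Mcm2 at 212 and 238 CPM, against 64.1 CPM in both FBS libraries (1.81 ± 0.12). Rrm1 was the lower gene, at 298 and 305 CPM in A2S, against 503 and 487 CPM in FBS (-0.71 ± 0.11, adjusted p = 1.13e-06). Rfc3, Rfc4, Tyms and Usp1, a deubiquitinase of the clamp, had no call.

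Fibroblast markers moved the other way between these media: their sum was 1786 and 1506 CPM at A2S day 6, against 7814 and 8123 CPM at FBS day 6, with 11 of 11 markers detected in each of the 4 libraries. Pluripotency markers summed to 1215 and 1342 CPM in A2S (12 of 12 detected), against 73.5 and 81.9 CPM in FBS (5 and 4 of 12). The part of cell composition in the difference was not tested in these sums. Values within cells are given further on.

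Against ESCs, the end points of both courses were lower. At A2S day 6, 37 genes were lower and none was higher (median -0.78, background 25.1% lower and 29.6% higher), of which 25 held in every alternative. At FBS day 12, 41 were lower and 1 was higher (median -1.76, background 32.7% lower and 33.9% higher), of which 40 held. Hells was at 111 and 113 CPM at A2S day 6 (-1.83 ± 0.15) and at 33.1 and 37.8 CPM at FBS day 12 (-3.48 ± 0.19), against 413 and 381 CPM in ESCs. E2f8 (chromosome 7, 48866429 to 48881596, protein-coding) was at 28.1 CPM in both A2S day 6 libraries (-2.11 ± 0.21) and at 17.7 CPM in both FBS day 12 libraries (-2.78 ± 0.24), against 136 and 108 CPM in ESCs. Each of these values lay below both ESC libraries. The 6 genes with no call at A2S day 6 included E2f1, at 36.5 and 43.1 CPM, against 40.8 and 33.3 CPM in ESCs, and Rrm1, at 298 and 305 CPM, against 253 and 280 CPM in ESCs. Rrm1 was the 1 higher gene at FBS day 12, at 360 and 421 CPM (0.55 ± 0.11, adjusted p = 5.13e-05).

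Media that lacked a part of A2S were set against full A2S at day 6. AS, without 2i, had 30 genes lower and none higher (median -0.63, background 19.2% lower and 20.0% higher). A2, without SGC0946, had 25 lower and none higher (median -0.51, background 14.8% lower and 15.9% higher). S2, without ascorbic acid, had 15 lower and none higher (median -0.33, background 8.17% lower and 7.63% higher). All 3 media share the same 2 A2S libraries. Calls that held in every alternative numbered 19 in AS, 15 in A2 and 4 in S2. Without A2S day 6 B the counts were 16 in A2 and 4 in S2, and without S2 day 6 A the count in S2 was 5. Differences between the 3 media were not tested.

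Gmnn, Ung, Mcm2 and Mcm6 were lower in each of the 3 media, and held in every alternative there. Gmnn was at 59.7 and 76.3 CPM in AS (-1.12 ± 0.13), 63.1 and 62.9 CPM in A2 (-1.22 ± 0.13) and 69.9 and 87.3 CPM in S2 (-0.91 ± 0.13), against 149 and 144 CPM in A2S. Ung was at 29.6 and 43.7 CPM in AS (-1.22 ± 0.16), 39.2 and 36.7 CPM in A2 (-1.15 ± 0.16) and 50.7 and 41.5 CPM in S2 (-0.86 ± 0.16), against 74.5 and 93.8 CPM in A2S. For both genes, no library of the 3 media reached the A2S libraries. By role, the chromatin genes were lower in 7 of 7 cases in AS, 5 of 7 in A2 and 6 of 7 in S2, and the polymerase, clamp and loader genes in 5, 3 and 0 of 10. Slbp fell to 7.27 and 9.75 CPM in AS, against 25.3 and 23.9 CPM in A2S (-1.55 ± 0.34, adjusted p = 4.71e-04). In the same libraries, epithelial markers summed to 328 and 386 CPM in AS, 157 and 137 CPM in A2 and 633 and 558 CPM in S2, against 985 and 914 CPM in A2S (9 or 10 of 10 detected in each). Fibroblast markers summed to 5150 and 5406 CPM in AS, 3912 and 3815 CPM in A2 and 2035 and 1759 CPM in S2, against 1786 and 1506 CPM in A2S. Pluripotency markers summed to 317 and 414 CPM in AS, 192 and 208 CPM in A2 and 354 and 313 CPM in S2, against 1215 and 1342 CPM in A2S (9 to 12 of 12 detected). Their part in the difference was not tested.

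ESCs with A2S for 2 days were set against ESCs in serum. Calls went both ways, with 11 genes higher and 5 lower (median 0.01, background 25.2% higher and 21.5% lower). The share called higher (25.6%) was about that of all genes, and the share called lower (11.6%) was below it. E2f8 fell to 30.8 and 40.2 CPM in ESCs with A2S, against 136 and 108 CPM in ESCs (-1.78 ± 0.20, adjusted p = 7.52e-09). E2f1 rose to 67.7 and 66.7 CPM, against 40.8 and 33.3 CPM in ESCs (0.86 ± 0.19, adjusted p = 4.28e-04). The activator E2f1 and the repressor E2f8 thus moved in opposite directions, with no overlap between groups for either. Lig1, which seals Okazaki fragments, rose to 288 and 314 CPM, against 161 and 159 CPM in ESCs (0.91 ± 0.11, adjusted p = 4.56e-08), and Rpa2, a subunit of the single-strand binding complex, rose to 239 and 214 CPM, against 138 and 121 CPM (0.81 ± 0.12). The calls of Cdca7, E2f1, E2f8, Lig1, Rfc2, Rpa2 and Ung held in every alternative. With listed cells kept (62 and 37 of them in ESCs with A2S, 5 and 6 in ESCs), 5 genes were higher and 12 lower. Without ESC B the count of calls was 10.

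Single cells were compared after each was thinned to 1000 UMIs, which left out at most 18 cells of a group. The 43 genes then gave a mean of 9.25 and 8.44 UMIs per cell in the ESC libraries and 8.44 and 8.19 in ESCs with A2S, against 2.26 and 2.56 in MEFs. A2S day 6 had 4.71 and 4.54, against 2.45 and 2.28 at FBS day 6. Cells with no UMI of any of the 43 genes made up 0.725% and 0.610% of ESCs, against 29.5% and 23% of MEFs. The share was 37.8% and 32.6% at FBS day 12, against 9.13% and 9.62% at FBS day 3. Without thinning, group means of this share were 0 in ESCs, 0.348% in MEFs and 5.60% at FBS day 12, so the share is a reading at a fixed depth and not a share of cells without expression. For scale, the irradiated MEFs on the authors' list, which do not divide, gave 0.669 UMIs per cell in A2S day 2 (118 cells), 0.606 in FBS day 3 (216 cells), 0.600 in FBS day 6 (45 cells) and 0.522 in MEFs (23 cells), with 50.0% to 62.2% of these cells at 0. Their median depths (11140.0 to 15670.0 UMIs) were of the order of those of kept cells (9381.0 to 22480.5). Listed cells of ESCs with A2S (1.47), S2 day 4 (1.85) and AS day 4 (1.15) were higher. Every kept group averaged more than the listed cells of its own libraries wherever 20 or more were listed.

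Shares of cells with a UMI at this depth were read for 11 members, picked after their values were seen, and differed in how they ordered the groups. Mcm5 had a UMI in 34.8% and 45.1% of ESCs, against 7.38% and 7.89% of MEFs, with exact 95% binomial intervals of 26.9% to 43.4% and 37.4% to 53.1%, against 4.68% to 11% and 5.52% to 10.8%. Hells had one in 32.6% and 33.5% of ESCs, against 3.69% and 2.32% of MEFs. Rrm2 was seen in 40.6% and 37.2% of ESCs, against 17.8% and 21.3% of MEFs. The intervals cover counting error only. At day 6, Mcm5 was seen in 17.4% and 20.9% of A2S cells, against 4.46% and 5.08% of FBS cells. Rrm2 was seen in 25.7% and 28.0% of A2S cells, against 12.0% and 10.7% of FBS cells. Rrm1 had the opposite order at day 6, with 23% and 24.8% of A2S cells, against 37.3% and 34.0% of FBS cells. Usp1 overlapped, with 9.13% and 11.4% of A2S cells, against 11.7% and 9.64% of FBS cells. Rrm1 was also seen in 26.8% and 28.7% of ESCs, against 22.5% and 22.0% of MEFs, with overlapping intervals (19.6% to 35.0% and 21.9% to 36.2%, against 17.9% to 27.7% and 18.2% to 26.3%), so its share does not repeat the lower summed level in ESCs. Listed irradiated MEFs, which should hardly express these genes, had a Rrm2 UMI in 0% of 45 cells at FBS day 6, which allows a share of up to 6.67%, in 3.24% of 216 cells at FBS day 3 and in 10.2% of 118 cells at A2S day 2. For Cdc6 the share was 10.1% and 3.66% in ESCs, against 1.68% and 1.62% in MEFs, and the interval of ESC B (1.35% to 7.79%) overlapped those of both MEF libraries.

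Spread between cells differed between groups as well. The variance of the UMIs over their mean was 1.68 and 1.61 in ESCs, against 2.57 and 2.50 in MEFs. It was highest late in serum, with 5.05 and 4.78 at FBS day 9 and 4.51 and 4.30 at FBS day 12, against 2.13 and 2.55 at FBS day 3. At 5000 UMIs per cell, a depth chosen after the data were seen, the 10th percentile of ESCs (30.0 and 28.0 UMIs) was at or above the 90th percentile of MEFs (28.0 in both). In serum the 90th percentile was 41.5 and 41.0 at day 3, 30.0 and 35.2 at day 6, 40.0 and 40.3 at day 9 and 38.6 and 37.0 at day 12. The 10th percentile was 6.00 and 5.00 at day 3, 2.00 and 1 at day 6, 2.00 in both at day 9 and 1 in both at day 12. At day 9, 158 and 163 cells were too shallow and left out. The mean was 11.8 and 12.8 at day 12, against 23.6 and 23.3 at day 3. A2S day 6 reached 46.6 and 47.0 at its 90th percentile and 3.00 at its 10th.

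The relation of the 43 genes to 57 genes of G2 and mitosis changed sign between cell types. Across the cells of a library, at 5000 UMIs, Spearman's rho between the 2 sums was -0.34 and -0.42 in ESCs (122 and 148 cells) and -0.51 and -0.42 in ESCs with A2S (308 and 258 cells), against 0.63 and 0.61 in MEFs (286 and 407 cells). It was positive in each library of the reprogramming cultures, from 0.45 at FBS day 3 B to 0.79 at A2 day 4 B. The 4 ESC libraries were thus the only ones of the 32 in which cells rich in replication transcripts were poorer in G2/M transcripts. The cells of a library share its preparation, and both sums come out of the same fixed total. These values are descriptions with no test.

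**Figure D3:**
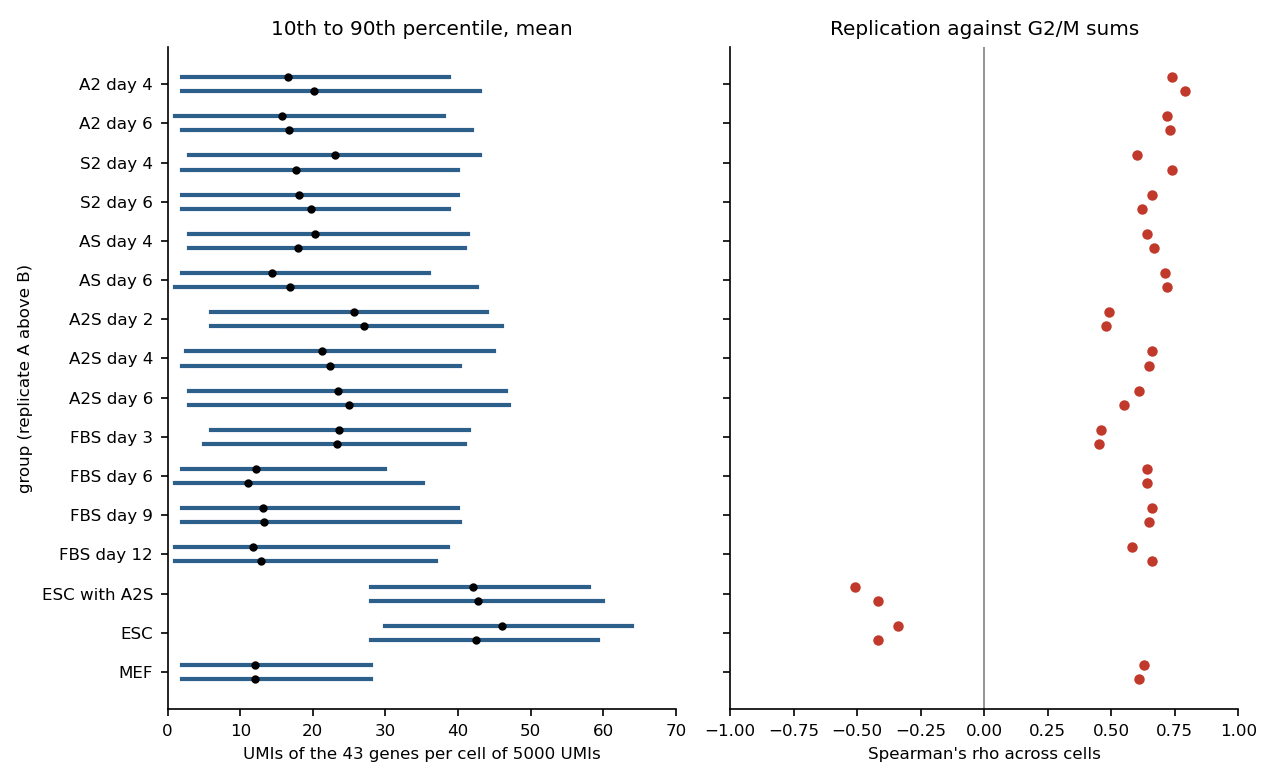
Left, UMIs of the 43 genes per cell thinned to 5000 UMIs, with the 10th to 90th percentile (bar) and the mean (point) of each library. Right, Spearman's rho across cells between the sums of the 43 genes and of 57 G2/M genes. The bars of ESCs and of ESCs with A2S begin at 28.0 or 30.0 UMIs, where those of MEFs end, and only these 4 libraries have a negative rho (-0.51 to -0.34).

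Members differed in how far they followed the others from cell to cell. The median over libraries of Spearman's rho between a gene and the sum of the other 42 was highest for Rrm2 (0.66), Mcm6 (0.62), Mcm4 (0.54) and Mcm5 (0.54), and lowest for Rfc4 (0.13), Slbp (0.14), E2f1 (0.18) and Rfc3 (0.21). Genes seen in few cells have less room to correlate: at this depth Rrm2 had a UMI in a median of 57.4% of cells, Rfc4 in 9.73% and Slbp in 7.57%. Rrm1, seen in the most cells (70.1%), had a median of 0.40. Detection does not order the genes fully, since Cdca7 (26.1% of cells) had 0.26 and Hells (24.9%) had 0.44.

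Cells with a Nanog UMI were compared with cells without one inside the same libraries of A2S day 6, S2 day 6 and FBS day 12. Nanog is a pluripotency factor. A Nanog UMI was found in 48.7% and 48.8% of kept cells at A2S day 6, in 25.7% and 21.6% at S2 day 6 and in 11.9% and 9.47% at FBS day 12, against 0.336% and 1.62% of MEFs, which were deeper (median 22796.0 and 19102.0 UMIs, against 9018.0 to 12930.0). Listed MEFs of the same libraries had one in 1 of 4 cells at A2S day 6, 0 of 19 at S2 day 6 (which allows up to 15.8%) and 0 of 28 at FBS day 12 (up to 10.7%), too few to set the background there, so single cells of the positive class may not express the gene. Nanog-positive cells had 36 of the 43 genes higher and none lower at A2S day 6 (median 0.81, background 13.9% higher and 17.2% lower), 22 higher and none lower at S2 day 6 (median 0.63, background 4.89% higher and 7.80% lower), and 33 higher and 1 lower at FBS day 12 (median 1.68, background 13.0% higher and 17.4% lower, median of all genes -0.17). Nasp was at 380 and 344 CPM in Nanog-positive cells of A2S day 6, against 131 and 118 CPM in Nanog-zero cells (1.54 ± 0.13, adjusted p = 6.30e-09). At FBS day 12 it was at 461 and 482 CPM, against 55.7 and 84.2 CPM (2.76 ± 0.17, adjusted p = 3.92e-11). Its Nanog-positive cells stood above the Nanog-zero cells of the same library in all 4 of these libraries. Ung at FBS day 12 was at 113 and 196 CPM in Nanog-positive cells, against 17.6 and 10.7 CPM in Nanog-zero cells (3.46 ± 0.35), and Mcm3 at 365 and 339 CPM, against 56.4 and 49.0 CPM (2.74 ± 0.20). Of the 57 G2/M genes, 36 were higher in Nanog-positive cells at A2S day 6 (median 0.55), 47 at S2 day 6 (median 0.94) and 48 at FBS day 12 (median 1.58), and none was lower. Of the 58 other replication genes, 41, 22 and 41 were higher (medians 0.73, 0.52 and 1.35) and none was lower. Of the 28 G1/S regulators, 6 were higher and 8 lower at A2S day 6 (median 0.19), 3 and 5 at S2 day 6 (median 0.14) and 7 and 8 at FBS day 12 (median -0.18). Rrm1 was the lower member at FBS day 12 (-0.47 ± 0.16, adjusted p = 0.0287, no call without FBS day 12 B).

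Thinned to 1000 UMIs, Nanog-positive cells averaged 6.32 and 6.05 UMIs of the 43 genes at A2S day 6, against 3.18 and 3.05 in Nanog-zero cells. They averaged 5.26 and 6.27 at S2 day 6, against 3.21 and 3.30, and 6.27 and 7.22 at FBS day 12, against 1.58 and 2.04. Nanog-positive cells of FBS day 12 were few (22 and 18), and all these means stayed below those of ESCs (9.25 and 8.44). Median depths were 12369.0 and 12478.5 UMIs in positive cells of A2S day 6, against 12909.5 and 9793.0 in zero cells, and 10796.5 and 12056.0 in positive cells of FBS day 12, against 8989.0 and 9197.0. Tests on thinned counts, which hold far fewer UMIs, called 9 genes higher at A2S day 6, 0 at S2 day 6 and 12 at FBS day 12. Leaving out S2 day 6 A or B left 8 or 9 calls there.

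**Figure D4:**
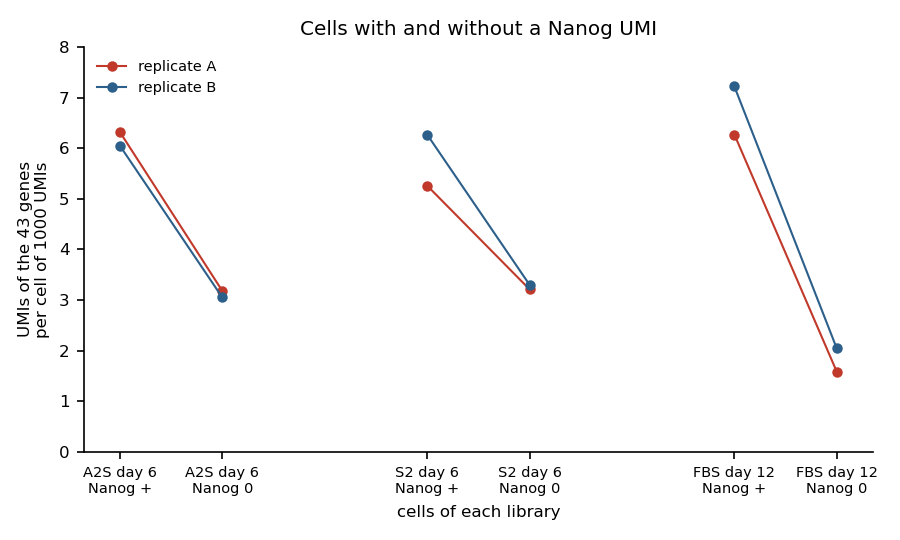
Mean UMIs of the 43 genes per cell thinned to 1000 UMIs, for cells with a Nanog UMI (left of each pair) and cells without one (right), joined within a library. Each of the 6 libraries has the higher mean in its Nanog-positive cells, from 5.26 to 7.22, against 1.58 to 3.30 in Nanog-zero cells.

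Other genes of the same processes were read from 3 further lists. Of 58 other replication genes, 53 were higher and 1 lower in ESCs against MEFs (median 1.44), 45 were lower and 1 higher at FBS day 6 against day 3 (median -0.81), and 43 were higher and none lower at A2S day 6 against FBS day 6 (median 0.92). Dna2, a nuclease that processes Okazaki flaps, had 3.62 ± 0.19, -1.70 ± 0.32 and 3.07 ± 0.28 in these comparisons, and the mismatch repair gene Msh6 had 3.28 ± 0.13 in ESCs. Of 57 G2/M genes, 48 were higher and none lower in ESCs (median 1.19), 56 were lower and 1 higher at FBS day 6 against day 3 (median -1.27), and 50 were higher and none lower at A2S day 6 against FBS day 6 (median 1.03). The 43 genes and the G2/M genes thus went the same way in bulk in these comparisons. They were less alike in some others. In AS against A2S at day 6, 30 of the 43 genes were lower and none higher (median -0.63). There, 15 of the G2/M genes were lower and 2 higher (median -0.22). At A2S day 6 against day 4, 11 of the 43 genes were higher and 2 lower, where 1 G2/M gene was higher and 2 were lower.

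Regulators of the G1 to S step did not move as a block. Of 28, 13 were higher and 10 lower in ESCs (median 0.20), 8 were higher and 9 lower at FBS day 6 against day 3 (median -0.14), and 9 were higher and 13 lower at A2S day 6 against FBS day 6 (median -0.17). Mycn, a MYC family activator, had 6.97 ± 0.21 and Mybl2, an S phase transcription factor, 4.16 ± 0.24 in ESCs, where the cyclin Ccnd2 had -5.27 ± 0.18 and the kinase inhibitor Cdkn1a -3.68 ± 0.12. Myc, of the same family as Mycn, was lower in ESCs (-1.76 ± 0.16). At FBS day 6 the kinase inhibitors Cdkn1c (2.91 ± 0.31) and Cdkn2a (1.40 ± 0.18) were higher than at day 3. The inhibitors Cdkn1b (0.59 ± 0.15) and Cdkn1a (0.50 ± 0.10) were higher too, as were Ccnd2 (1.95 ± 0.13) and Rb1 (1.29 ± 0.16). The inhibitor Cdkn2c (-0.68 ± 0.25), E2f7 (-1.15 ± 0.22) and Rbl1 (-1.12 ± 0.22) were lower. The inhibitors Cdkn2b (-0.26 ± 0.17) and Cdkn2d (0.08 ± 0.21) had no call. Cdkn1c was lower at A2S day 6 than at FBS day 6 (-3.48 ± 0.33), while Mycn (4.96 ± 0.37) and Mybl2 (3.86 ± 0.33) were higher.

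Some members cannot be read as cleanly as others from these counts. GENCODE names processed copies of Pcna, Tyms and Nasp, and the source of each UMI among such copies depends on how the authors counted. A coding gene on the opposite strand overlaps 8 members (Mcm7, Gins2, Cdc45, Rfc2, Rfc4, Chaf1a, Fen1 and Lig1), and whether counting used strand is not given in the sources used here.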

How the data were processed

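Droplet libraries (ddSEQ, SureCell 3' kit, per the labels' protocols) were deposited by the authors as tables of UMI counts per cell, with a list of irradiated MEF barcodes. The submitters' processing notes name bcl2fastq 2.19, STAR and mm10; no version of STAR and no strand setting is given in the sources used here. The tables were read as raw counts, listed barcodes were dropped and the counts of the kept cells were summed per library, giving 1727490 to 8848775 UMIs. CPM of genes used TMM factors, and those of marker sums the plain library totals. Tests were edgeR 4.0.16 (R 4.3.3) quasi-likelihood F tests in 1 fit of 32 libraries after filterByExpr, with Benjamini-Hochberg adjustment over 13228 genes and calls under 0.05; the Nanog classes were fitted with library as a block. SE is the fold change over the root of F. The code was tested on simulated data. Cells were thinned to 1000 UMIs (5000 for co-variation, chosen after the data were seen), and no doublet caller was run.

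As alternatives, tests were repeated with DESeq2 1.42.0, with RLE factors, without the filter, on the compared groups alone, with listed cells, without cells under 1000 UMIs, at other thinning depths, with Nanog-positive set at 2 UMIs, with the replicate block and without each library in turn. The members and gene lists were chosen with earlier results of these data known. Genes with printed values were the largest called changes with no overlap between libraries at 20 CPM or more, up to 6 each way, and a panel of 14 members (Mcm3, Mcm5, Mcm6, Cdc6, Cdc45, Pcna, Tyms, Rrm2, Hells, Gmnn, Slbp, E2f1, Lig1 and Ung); other values, such as those of Rrm1 where it had no call, were chosen after they were seen. Gene positions are from GENCODE vM21 (mm10) and promoter sequences from RefSeq (GRCm38.p6).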

Additional observations from a re-analysis of the deposited data

Results flagged for a closer look

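Rrm1 differed in sign between cultures when Nanog classes were compared, in both libraries of each. In Nanog-positive against Nanog-zero cells its log2 fold change was 0.23 at A2S day 6 (343 and 341 CPM, against 286 and 296 CPM) and 0.21 at S2 day 6 (361 and 374 CPM, against 311 and 325 CPM), neither past the threshold, and -0.47 at FBS day 12 (370 and 268 CPM, against 400 and 487 CPM). The difference between the cultures was not tested.

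The summed level of the 43 genes changed between days 4 and 6 by 384 CPM in A2S cultures, where both day 6 libraries were above both day 4 libraries. It changed by -530 CPM in A2 and by -640 CPM in AS cultures, where both day 6 libraries were below both day 4 libraries. The difference between media was not tested. In S2 the libraries of the days overlapped (3667 and 3810 CPM at day 6, against 4528 and 3610 CPM at day 4).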

How the results depend on the processing

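Of 509 calls of a member in a comparison, 315 held in every alternative. With listed cells kept, the count of called members was 14 for FBS day 3 against MEFs, and the balance of directions turned for A2S day 4 against day 2 (8 calls) and for ESCs with A2S against ESCs (17 calls); mean member UMIs per 1000 were then 4.04 at A2S day 2, 7.45 in ESCs with A2S, 3.26 at FBS day 3 and 2.23 at FBS day 6. Those means were 4.33 at A2S day 4 without thinning, 4.82 at A2S day 6 thinned to 500 and 4.58 at FBS day 3 thinned to 2000. DESeq2, and the compared groups alone, each called 3 members for FBS day 12 against day 9. In Nanog-positive cells DESeq2 called 23 at A2S day 6 and 11 at S2 day 6, and thinned cells gave 9, 0 and 12 calls at A2S day 6, S2 day 6 and FBS day 12. Thinned cells turned the sign of Rfc2 (-0.08) at A2S day 6, Pole (-0.83) at S2 day 6, and Prim1 (-4.94), Rfc2 (-0.04) and Pola1 (-0.77) at FBS day 12, and Wdr76 there ranged from -1.67 to 3.31 with a library left out. The cause was not tested.

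With each library left out in turn, counts of calls ranged from 2 to 5 for FBS day 9 against day 6, 0 to 3 for day 12 against day 9, 3 to 7 for A2S day 4 against day 2, 5 to 10 for A2S day 6 against day 4, 16 to 21 for A2 and 4 to 10 for S2 against A2S, 10 to 14 for ESCs with A2S against ESCs, and 8 to 9 for Nanog-positive cells of S2 day 6.

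With the replicate letter as a replicate block, counts were 41 for ESCs against MEFs, 34 for FBS day 3 and 34 for A2S day 2 against MEFs, 39 for FBS day 6 against day 3 and 14 for S2 against A2S, and none of the 16 counts moved by over 1.5 times. Deviations of same-lettered libraries correlated between -0.03 and 0.02 over 13228 genes, and between -0.34 and 0.39 over the members alone. Counting noise enters these deviations, so values near 0 cannot decide whether the letters pair the samples.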
